A study of Mus musculus with 6 samples.

Results

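The nucleolar ribosome biogenesis factors are proteins that transcribe, cleave, modify and fold ribosomal RNA (rRNA) and assemble it with ribosomal proteins. Here they are 36 genes chosen by symbol, of 52089 symbols in the deposited table, and all 36 were found. Their RNA was measured in 6 libraries of primary brite adipocytes, the thermogenic adipocytes that arise from progenitor cells of white fat, grown from inguinal fat of 129SvEv mice. Cells were induced for 2 days, differentiated with rosiglitazone for 1 day, and then transfected with 50 nM of an LNA Gapmer, an antisense oligonucleotide that directs RNase H to its target. In 3 libraries the oligonucleotide was directed against the long noncoding RNA *Ctcflos* (Ctcflos KD), and in 3 it was a nontargeting control (NC ctrl). RNA was harvested 24 h later. Both groups share the mouse strain, the rosiglitazone and the transfection. The labels do not say that the 3 libraries of a group come from separate cultures or animals, so that p-values measure the spread between these libraries, and an effect of losing *Ctcflos* and any other effect of its oligonucleotide cannot be told apart.

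In the nucleolus, RNA polymerase I makes a long rRNA precursor. Small nucleolar RNPs (snoRNPs) of the box C/D type guide ribose methylation of this precursor, those of the box H/ACA type guide the conversion of uridine to pseudouridine, and 2 large sets of assembly factors bring the precursors of the small and the large subunit to the cytoplasm. Genes of this pathway are known targets of the transcription factor MYC, which binds the E-box CACGTG. The members were grouped by role into nucleolar RNA-binding proteins (4), RNA polymerase I transcription (3), box C/D snoRNP (5), box H/ACA snoRNP (4), small subunit assembly (10) and large subunit assembly (10).

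Promoter sequence was examined as a feature that the choice of members did not use. RefSeq promoter windows of 300 bases (250 before and 50 after the start of transcription, GRCm38.p6) were matched for 31 of 36 members. The letters CACGTG, which read the same on both strands, occurred in windows of 6 of these 31 members (19.4%), of 8.09% of all genes with a window, and of 12.5% of the 6950 tested genes with a window. The 6 matches are printed with 12 bases on either side where the window reaches that far, 5′ to 3′ on the strand of the gene, with the E-box in capitals, because they are the members in which the data can be set beside a shared motif.
Nop2: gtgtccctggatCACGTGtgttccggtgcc
Mybbp1a: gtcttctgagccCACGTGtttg
Ltv1: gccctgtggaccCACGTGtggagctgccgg
Tsr1: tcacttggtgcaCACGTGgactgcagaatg
Wdr43: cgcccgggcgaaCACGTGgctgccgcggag
Pes1: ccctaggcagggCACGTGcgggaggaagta
The stretches lie at chr6:125131811-125131840 on the plus strand for *Nop2*, chr11:72441355-72441376 plus for *Mybbp1a*, chr10:13193092-13193121 minus for *Ltv1*, chr11:74898092-74898121 plus for *Tsr1*, chr17:71616220-71616249 plus for *Wdr43* and chr11:3963965-3963994 plus for *Pes1*. The motif stood 60 bases before the start in *Nop2* and between 2 and 40 bases after the start in the other five. Of these 6 members, 5 were called higher in Ctcflos KD and *Pes1* was called lower (values below). Among all tested members, with the motif or not, 54.8% were called higher, and the part of the motif in the 5 calls was not tested. Of the 870 tested genes with the motif, 14.1% were called higher and 11.5% lower, and of those without it 11.9% were called higher. The most increased members, *Nop56* and *Nop16*, had a matched window without these letters. Tested genes with the motif (870) had a median log2 fold change of 0.0653, and those without it one of 0.0225. These are descriptions of sequence, and no binding was measured.

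The libraries were checked on the targeted RNA, on depth and on markers. *Ctcflos* (1300015D01Rik) had 0.0969, 0.0705 and 0.2096 RPKM (reads scaled to transcript length in kilobases and to library depth) in KD and 0.7478, 0.751 and 0.8402 RPKM in controls, so that 16.1% of the control level was left. Its log2 fold change was -0.66 ± 0.084 (SE, adjusted p = 0.025 by limma without a filter on low values), and this adjusted p reached 0.13 when 1 library was left out. The depth recovered from the values was 60.8 to 79.2 mio mapped reads. The summed adipocyte markers were at 4835 to 6331 RPKM in KD and 6470 to 7168 RPKM in controls (1 of 10 genes called lower, *Cebpa*), and those of brite cells at 70.4 to 91.5 and 123 to 194 RPKM (3 of 6 called lower). For other cells, the summed ranges in KD and controls were 196 to 412 and 293 to 469 RPKM for progenitors (7 genes, *Pdgfra* called lower), 6.61 to 16.1 and 8.04 to 27.3 for leukocytes (4 genes, *Cd68* called higher), 17.8 to 49.0 and 32.7 to 84.9 for mural cells (4 genes), 8.36 to 30.4 and 6.56 to 9.92 for epithelial and mesothelial cells (5 genes, nearly all of it *Krt19*, with *Upk3b* at 0 in controls), and 0.647 to 0.922 and 1.07 to 1.35 for endothelial cells (4 genes). Thus the summed adipocyte and brite markers were lower in the KD libraries, although *Plin4*, *Cidec* and *Retn* (named after their values were seen) had the higher mean in KD and overlapped between groups, and their part in the results below was not tested. In such bulk samples, a change of RNA per cell and a change in the share of a cell type cannot be told apart.

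Most nucleolar factors were more abundant after *Ctcflos* KD. Of the 36 members, 31 reached a mean of 1 RPKM and were tested, and 5 (*Fbl*, *Polr1b*, *Nat10*, *Rrp12* and *Wdr12*) lay below. In limma on log2(RPKM + 1) over 11701 genes, 17 of 31 members (54.8%) were called higher at an adjusted p under 0.05, against 11.5% of all tested genes, and 2 of 31 (6.45%), *Bop1* and *Pes1*, were called lower, against 12.4% of all tested genes. The median log2 fold change was 0.38 over the tested members and 0.0278 over all tested genes. Because 1 is added to the RPKM before the logarithm, fold changes of low genes are understated. In 23 members (74.2%) every KD library lay above every control, as in 22.9% of all tested genes. In 2 members every KD library lay below every control (21.9% of all tested genes), and 6 overlapped. The direction of each of the 31 tested members was the same in all 13 alternative fits, but the number called was not. It was 7 without the filter, where 1.96% of 38335 genes were called higher, and 2 when control 1 or control 3 was left out, 7 without KD 2, 8 without KD 1, 15 without control 2 and 23 without KD 3. The share of all genes called higher moved with it, to 1.13% without control 1, 1.11% without control 3 and 23.3% without KD 3. It was 3.8% without KD 2, 3.85% without KD 1 and 5.34% without control 2. *Bop1* and *Pes1* were called lower in the fit without KD 3 and in none of the other five fits that left out a library.

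**Figure D1:**
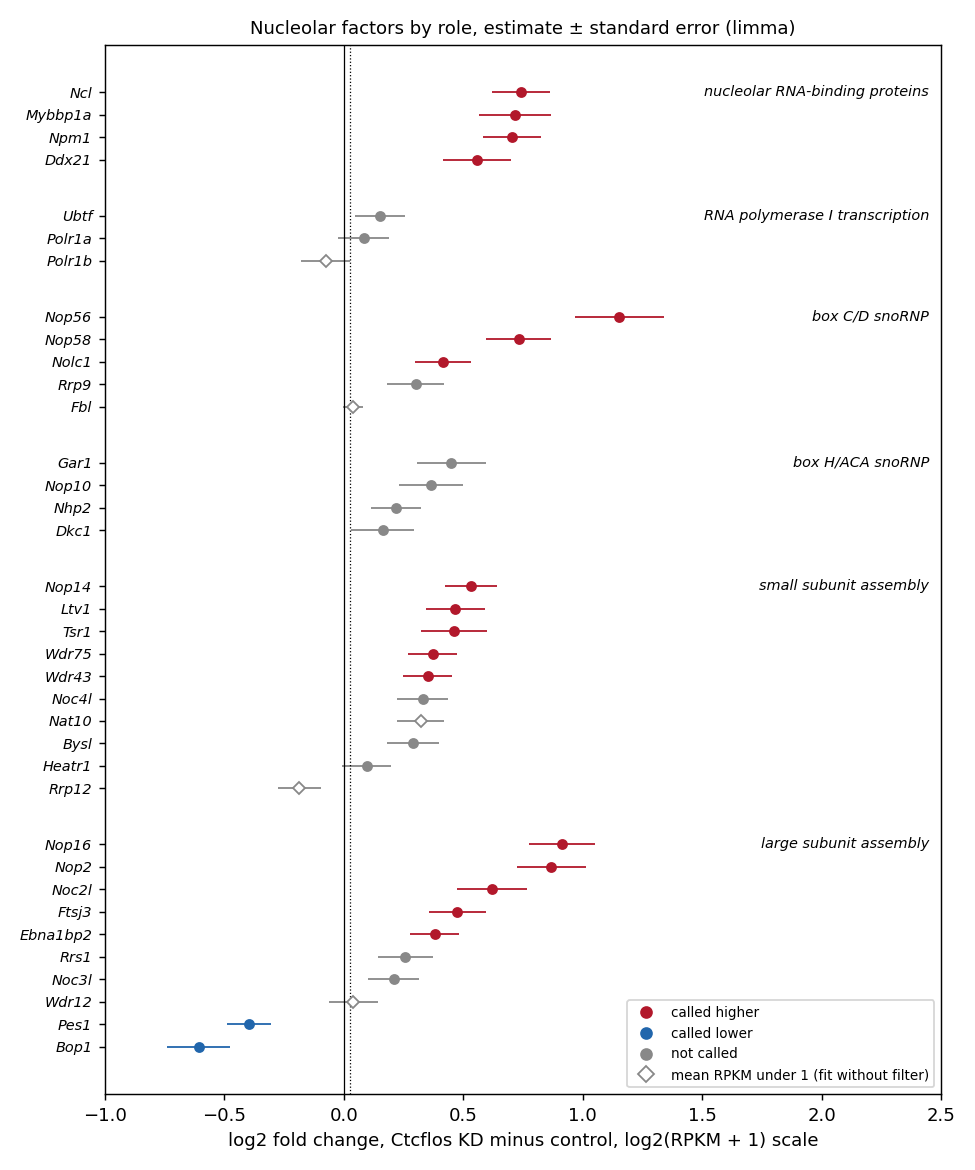
The plot of fold changes shows the log2 fold change of each member (Ctcflos KD minus control, log2(RPKM + 1) scale, points) with its standard error (bars), grouped by role, n = 3 libraries per group. The dotted line marks the median of all tested genes (0.0278). *Nop56* lies farthest right at 1.15, and *Pes1* and *Bop1* are the only members called lower.

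The nucleolar RNA-binding proteins rose as a group, with 4 of 4 called higher (11.5% of all tested genes were) and a median log2 fold change of 0.709. *Ncl* encodes nucleolin, an RNA-binding protein of the dense nucleolus that binds nascent rRNA. It had 12.6, 13.0 and 10.5 RPKM in KD and 6.33, 7.53 and 6.46 RPKM in controls. All KD libraries lay above all controls, with a log2 fold change of 0.74 ± 0.121 (SE, limma adjusted p = 0.0084). *Npm1* encodes nucleophosmin, a histone and ribosome chaperone that shuttles between nucleolus and cytoplasm. It had 52.2, 61.4 and 53.3 RPKM in KD and 31.9, 36.0 and 33.4 RPKM in controls. The groups did not overlap, and the log2 fold change was 0.70 ± 0.123 (adjusted p = 0.0097). Of the 50-base words of its longest coding transcript, 40.9% also occur in transcripts of 11 other genes, so that its value is uncertain where the counting left out such reads. *Mybbp1a*, a nucleolar partner of MYB and of RNA polymerase I, had 6.82, 5.34 and 4.54 RPKM in KD and 2.66, 3.58 and 2.70 RPKM in controls. It was 0.72 ± 0.151 higher on the log2 scale (adjusted p = 0.017), and its E-box stands 40 bases after the start. The RNA helicase *Ddx21*, which couples polymerase I transcription to rRNA processing, had 12.5, 12.6 and 11.9 RPKM in KD and 6.78, 10.1 and 7.58 RPKM in controls. Here control 2 came close to the KD libraries, and the log2 fold change was 0.56 ± 0.143 (adjusted p = 0.028).

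The members that act in transcription by RNA polymerase I were not called. *Ubtf*, the factor that binds the rRNA gene promoter, had 5.18, 5.80 and 4.92 RPKM in KD and 4.50, 4.38 and 5.15 RPKM in controls, and the groups overlapped (log2 fold change 0.15 ± 0.104, adjusted p = 0.31). *Polr1a*, the largest subunit of the polymerase, had 2.00 ± 0.226 RPKM in KD and 1.83 ± 0.276 RPKM in controls (SD, n = 3; adjusted p = 0.60 by limma). *Polr1b*, the second-largest subunit, had 0.706 ± 0.137 and 0.797 ± 0.121 RPKM (adjusted p = 0.70 in the limma fit without the filter). A change smaller than the spread of these libraries could not be detected here.

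Of the box C/D snoRNP members, 3 of 4 tested genes were called higher (75.0%, against 11.5% of all tested genes). *Nop56*, a core protein of the particle, had the largest fold change of all members. It had 14.4, 16.1 and 11.8 RPKM in KD and 4.60, 7.76 and 5.24 RPKM in controls, a ratio of means of 2.40. Every KD library was above every control, and the log2 fold change was 1.15 ± 0.186 (limma adjusted p = 0.0080). Of the 50-base words of its longest coding transcript, 37.6% also occur in transcripts of 6 other genes, so that its value is uncertain too. *Nop58*, its partner in the same particle, had 6.72, 7.34 and 6.70 RPKM in KD and 3.21, 4.82 and 3.41 RPKM in controls. The groups were apart here too, with a log2 fold change of 0.73 ± 0.136 (adjusted p = 0.012). *Nolc1*, the chaperone Nopp140 that accompanies snoRNPs between Cajal bodies and the nucleolus, had 6.84, 7.97 and 6.81 RPKM in KD and 4.59, 5.92 and 4.98 RPKM in controls (log2 fold change 0.42 ± 0.118, adjusted p = 0.038). *Rrp9*, a protein of the U3 particle, had 1.30 ± 0.211 RPKM in KD and 0.871 ± 0.206 RPKM in controls (SD, n = 3). Its libraries did not overlap, but it did not pass the test (adjusted p = 0.099 by limma). *Fbl* encodes fibrillarin, the methyltransferase of the particle. It had 0.161 ± 0.0338 and 0.130 ± 0.0443 RPKM and overlapped between groups. Its level was far below those of its partners, and 73.0% of the 50-base words of its longest coding transcript also occur in transcripts of 3 other genes, so that its value is uncertain where the counting left out such reads. The part of this in its low value was not tested.

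None of the 4 box H/ACA members was called. In 3 of them (75.0%) every KD library lay above every control, as in 22.9% of all tested genes. *Gar1* had 2.16, 2.38 and 2.05 RPKM in KD and 0.898, 1.81 and 1.40 RPKM in controls. Its log2 fold change of 0.45 ± 0.145 came near the threshold (adjusted p = 0.056 by limma). *Nop10*, the smallest protein of the particle, had 46.2, 53.4 and 40.2 RPKM in KD and 36.2, 34.0 and 37.1 RPKM in controls (log2 fold change 0.36 ± 0.136, adjusted p = 0.085). *Nhp2* had 16.6 ± 0.375 RPKM in KD and 14.1 ± 1.02 RPKM in controls (SD, n = 3; adjusted p = 0.16 by limma). *Dkc1* encodes dyskerin, the enzyme that makes pseudouridine, which is also part of telomerase. It had 1.39, 1.58 and 1.94 RPKM in KD and 1.13, 1.76 and 1.20 RPKM in controls, and the groups overlapped (adjusted p = 0.38). The median log2 fold change of the group was 0.292. That of the tested box C/D members was 0.574, counting the snoRNP chaperone *Nolc1* (0.42), which was placed in that role here. Whether the 2 particle types differ in their response was not tested.

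**Figure D2:**
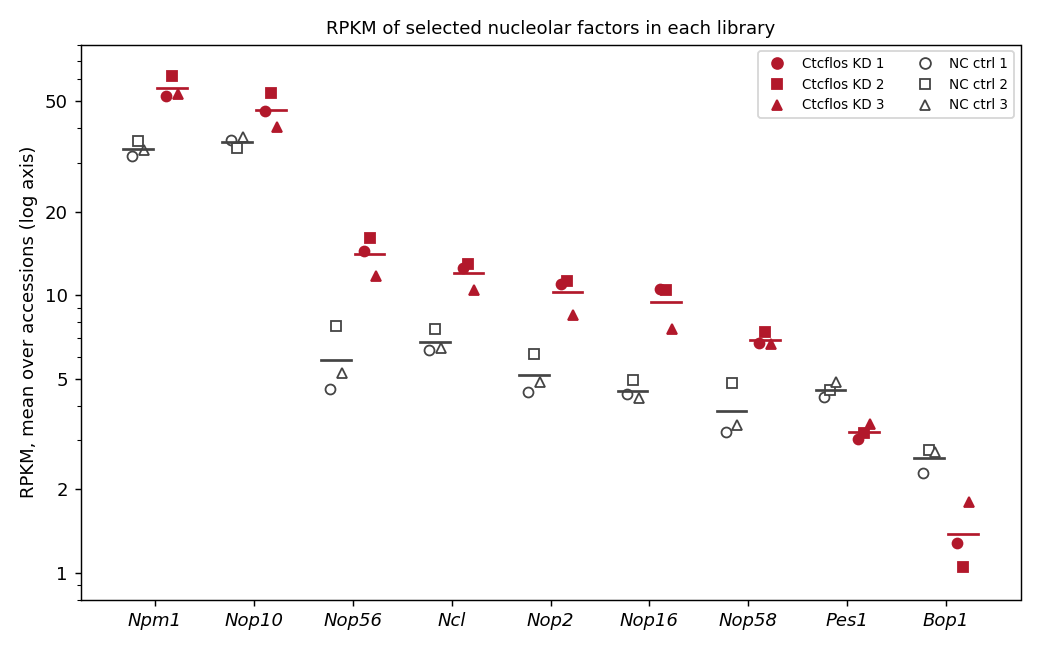
The plot of single libraries shows the RPKM (mean over the accessions of a gene, log axis) of 9 members in each Ctcflos KD library (filled, red) and each control library (open, grey), with lines at the group means. KD and control libraries do not overlap in any of the 9, and control 2 is the highest control in 6 of the 7 members to the left of *Pes1*, with *Nop10* as the exception.

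In small subunit assembly, 5 of 8 tested members were called higher (62.5%, against 11.5% of all tested genes) and none lower (median log2 fold change 0.361). *Nop14*, a factor of the earliest small-subunit precursor, had 2.74, 2.66 and 2.38 RPKM in KD and 1.28, 1.81 and 1.39 RPKM in controls (log2 fold change 0.53 ± 0.107, limma adjusted p = 0.015). *Ltv1* and *Tsr1* act late, in the cytoplasmic precursor, and each has an E-box just after its start. *Ltv1* had 5.88, 6.70 and 5.30 RPKM in KD and 3.52, 4.67 and 3.93 RPKM in controls (0.47 ± 0.123, adjusted p = 0.031). *Tsr1* had 7.15, 7.83 and 7.28 RPKM in KD and 4.05, 6.11 and 5.36 RPKM in controls (0.46 ± 0.137, adjusted p = 0.044). It shares 32.3% of its exonic bases with *Srr* on the opposite strand, and the counting is not stated to use strand, so that its value is uncertain. *Wdr75* and *Wdr43*, subunits of the complex that binds the 5′ end of the nascent precursor, were also called higher. *Wdr75* had 3.55 ± 0.0668 RPKM in KD and 2.53 ± 0.390 RPKM in controls (SD, n = 3; adjusted p = 0.037 by limma), and *Wdr43* had 7.24 ± 0.435 and 5.47 ± 0.478 RPKM (adjusted p = 0.043).

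The other small-subunit members did not pass the test. *Heatr1*, the largest protein of that same complex, had 1.56 ± 0.0902 RPKM in KD and 1.41 ± 0.258 RPKM in controls (SD, n = 3), and overlapped. *Noc4l* had 1.65, 1.54 and 1.16 RPKM in KD and 0.887, 0.881 and 1.07 RPKM in controls (adjusted p = 0.059 by limma), and *Bysl* had 5.74 ± 0.211 and 4.53 ± 0.572 RPKM (adjusted p = 0.085). *Nat10*, the acetyltransferase of small-subunit rRNA, lay under the filter with 1.17, 0.902 and 0.903 RPKM in KD and 0.532, 0.699 and 0.548 RPKM in controls. It was not called in the fit without the filter (adjusted p = 0.11). With RefSeq accessions alone, *Nat10*, *Noc4l* and *Gar1* were called higher and *Ebna1bp2* was not, so that 19 of 34 members were called higher, against 14.0% of 9343 genes, and 2 lower, against 16.3%. *Rrp12*, a factor for export of both subunits, was the one such member with every KD library below every control, at 0.477, 0.515 and 0.524 RPKM in KD and 0.617, 0.836 and 0.694 RPKM in controls (log2 fold change -0.19 ± 0.090, adjusted p = 0.27 without the filter).

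Large subunit assembly was the one role with calls in both directions. Of 9 tested members, 5 were called higher (55.6%, against 11.5% of all tested genes) and 2 lower (22.2%, against 12.4%). *Nop16*, a nucleolar protein of the large-subunit precursor, had 10.5, 10.4 and 7.53 RPKM in KD and 4.40, 4.94 and 4.26 RPKM in controls. KD libraries lay well above the narrow range of the controls (log2 fold change 0.91 ± 0.139, limma adjusted p = 0.0072). *Nop2*, a cytosine methyltransferase of large-subunit rRNA with an E-box 60 bases before its start, had 10.9, 11.2 and 8.52 RPKM in KD and 4.47, 6.12 and 4.88 RPKM in controls (0.87 ± 0.144, adjusted p = 0.0087). *Noc2l* had 3.78, 3.73 and 2.40 RPKM in KD and 1.53, 1.96 and 1.83 RPKM in controls (0.62 ± 0.147, adjusted p = 0.022). It shares 20.9% of its exonic bases with *Samd11* on the opposite strand, so that its value is uncertain too. *Ftsj3*, a ribose methyltransferase, had 5.02 ± 0.525 RPKM in KD and 3.34 ± 0.510 RPKM in controls (SD, n = 3; adjusted p = 0.027 by limma). *Ebna1bp2* had 4.38 ± 0.443 and 3.13 ± 0.228 RPKM (adjusted p = 0.032). *Rrs1*, which helps to bring the 5S particle into the precursor, had 7.15 ± 0.874 and 5.81 ± 0.488 RPKM, and *Noc3l* 1.59 ± 0.281 and 1.23 ± 0.0873 RPKM. Both overlapped between groups and were not called (adjusted p = 0.14 and 0.18).

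*Pes1*, *Bop1* and *Wdr12* form the PeBoW complex, which is needed for processing of the spacer between the 5.8S and 28S rRNAs. *Bop1* had 1.28, 1.05 and 1.80 RPKM in KD and 2.29, 2.76 and 2.73 RPKM in controls. Every KD library was below every control, and *Bop1* fell by 0.61 on the log2 scale (SE 0.131, limma adjusted p = 0.017). *Pes1* had 3.05, 3.19 and 3.44 RPKM in KD and 4.30, 4.54 and 4.85 RPKM in controls, again without overlap, and fell by 0.40 on the log2 scale (SE 0.0925, adjusted p = 0.021). *Wdr12* had 0.983, 0.879 and 1.006 RPKM in KD and 0.758, 1.12 and 0.849 RPKM in controls. It lay within the control range (0.04 ± 0.102, adjusted p = 0.84 without the filter). With RefSeq accessions alone, *Bop1* had 2.20 ± 0.589 RPKM in KD and 4.24 ± 0.353 RPKM in controls, *Pes1* had 3.89 ± 0.309 and 5.44 ± 0.376 RPKM, and *Wdr12* had 1.19 ± 0.107 and 0.996 ± 0.157 RPKM (SD, n = 3). Thus both members that fell belong to 1 complex, whose other member was not called. *Pes1* carries an E-box 2 bases after its start, closer to it than in the 5 raised members with the motif. Of its 50-base words, 22.6% also occur in transcripts of 3 other genes.

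**Figure D3:**
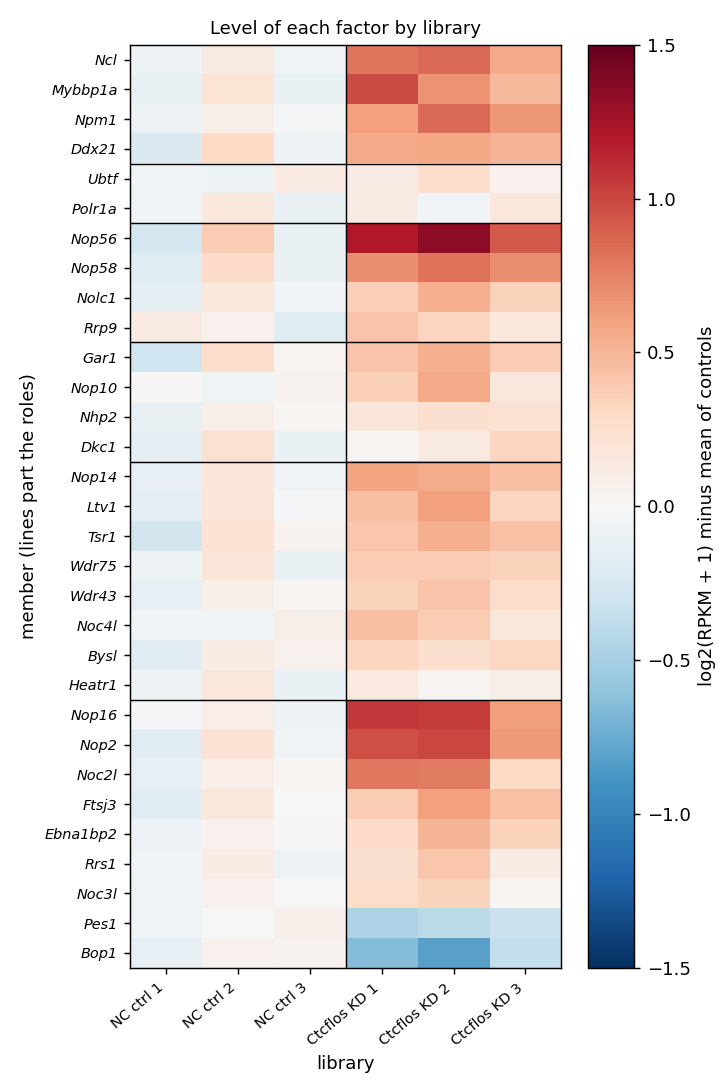
The heat map shows log2(RPKM + 1) minus the mean of the 3 controls for the 31 tested members (rows, lines between roles) in each library (columns). The KD columns are red in nearly every row except *Pes1* and *Bop1*, and among the controls NC ctrl 2 is the reddest column.

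The libraries of a group were not alike in these genes. NC ctrl 2 was the highest control in 31 of 36 members, although it was the highest control in 25.2% of all tested genes. It was so in all 17 members called higher, and in 45.2% of all genes called higher. The median deviation of the tested members from the control mean was 0.137 in NC ctrl 2, -0.113 in NC ctrl 1 and -0.0251 in NC ctrl 3 on the log2 scale, against 0.386, 0.53 and 0.328 in KD 1 to 3. The same median over all tested genes stayed between -0.0388 and 0.0522 in the 6 libraries. KD 3, the library with the most *Ctcflos* left among the KD libraries, was the lowest KD library in 21 of 36 members and in 45.6% of all tested genes. Thus NC ctrl 2 lay toward the KD libraries and KD 3 toward the controls, but the medians of the 2 groups stayed apart. Without control 2, 15 members were called higher (5.34% of all genes) and the median was 0.46. Without KD 3 it was 23 members (23.3% of all genes) and 0.45. The other fits that left out a library called fewer members. These were 2 without control 1 (1.13% of all genes), 2 without control 3 (1.11%), 8 without KD 1 (3.85%) and 7 without KD 2 (3.8%). Their medians were 0.335, 0.391, 0.427 and 0.35.

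The levels of the members were compared with each other on RefSeq mRNA accessions alone, which give RPKM per length of a curated transcript. In controls, *Npm1* (38.2 ± 2.33 RPKM, SD, n = 3) and *Nop10* (35.8 ± 1.51 RPKM) stood above all other members. The *Npm1* value is a mean over 3 RefSeq transcripts with control means of 51.6, 50.2 and 12.8 RPKM, and *Nop10* has 1 such transcript. How close the levels of these genes are thus depends on the averaging. *Nhp2* (12.5 ± 0.931 RPKM), *Ddx21* (9.01 ± 1.53 RPKM) and *Nop56* (8.0 ± 2.37 RPKM) followed, and the last 2 did not differ beyond their spread. At the lower end were *Wdr12*, *Nat10*, *Rrp12* (0.712 ± 0.113 RPKM) and *Fbl* (0.0839 ± 0.0499 RPKM). In KD, *Nop56* (19.7 ± 3.60 RPKM) came next after *Npm1* (63.0 ± 5.72 RPKM) and *Nop10* (46.6 ± 6.58 RPKM). Within the box C/D particle, *Nop56* and *Nop58* had 8.0 and 4.77 RPKM in controls and 19.7 and 8.74 RPKM in KD. Within the box H/ACA particle, *Nop10* exceeded *Dkc1* (3.27 ± 0.615 RPKM in controls). The summed RefSeq RPKM of the 36 members was 301, 329 and 280 in KD and 193, 227 and 205 in controls.

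The accessions of a gene mostly moved together. The 36 members have 303 accessions, between 2 and 24 each, which overlap and share reads and are therefore not independent. All KD libraries lay above all controls in 24 of 24 accessions of *Nop56*, 15 of 15 of *Ncl*, 13 of 13 of *Mybbp1a* and 6 of 6 of *Nop16*. They lay below all controls in 6 of 6 accessions of *Pes1*, 2 of 2 of *Rrp12* and 3 of 5 of *Bop1*, of which 1 other accession had the higher mean in KD. For *Wdr12*, 8 accessions had the higher mean in KD and 6 the lower. Shared sequence was frequent: 9 members share over 5% of their 50-base words with other genes, among them *Npm1* (40.9%) and *Nop56* (37.6%). The values of these 9 are uncertain. Among them, *Tsr1*, *Noc2l* and *Bysl* share 32.3%, 20.9% and 9.37% of their exonic bases with a gene on the opposite strand. There it matters whether the counting used strand. For words shared with genes at other places, it matters whether the counting left out such reads. Of the 24 tested members at or below 5%, 13 were called higher and 1, *Bop1*, lower, with a median of 0.375. Of all tested genes, 11.5% were called higher and 12.4% lower. The members had spans of 1.34 to 75.9 kb. The 7398 tested genes with spans in this range had a median log2 fold change of 0.0633, and 13.4% of them were called higher.

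The other genes of the pathway were taken from lists made by role. Of 206 listed genes, 180 were in the table and 159 were tested. Of these, 63 (39.6%) were called higher and 11 (6.92%) lower, against 11.5% and 12.4% of all tested genes, and the median log2 fold change was 0.285. Without control 1 or control 3 the number called higher was 2 or 5, and it was 17 without KD 2, 24 without KD 1 and 33 without control 2. Of all tested genes, 1.13% were called higher without control 1, 1.11% without control 3, 3.8% without KD 2, 3.85% without KD 1 and 5.34% without control 2. Without control 1, the pathway genes were thus called higher about as often as all genes. The number called lower was 4 without control 1, control 3 or KD 2, and 6 without KD 1. Of all genes, 289 were called lower without control 1, 239 without control 3, 647 without KD 2 and 719 without KD 1.

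Assembly factors of both subunits made up most of the increased genes. Among factors of the large-subunit precursor and its export, 30 of 51 tested genes were called higher (58.8%, against 11.5% of all tested genes). Of the same genes, 2 were called lower (3.92%, against 12.4%), and the median was 0.408. The most raised were *Ccdc86* (4.23 ± 1.23 RPKM in KD, 1.67 ± 0.138 RPKM in controls, SD, n = 3), *Nol8* (5.76 ± 1.36 and 2.48 ± 0.348 RPKM) and *Gnl3*, which encodes the nucleolar GTPase nucleostemin (4.79 ± 0.676 and 2.22 ± 0.601 RPKM), with log2 fold changes of 0.95, 0.94 and 0.86. Those that fell were *Las1l*, the endonuclease that cuts the spacer between the 5.8S and 28S rRNAs, and *Nvl*, an ATPase that releases factors from the precursor. *Las1l* had 0.334, 0.418 and 0.648 RPKM in KD and 1.72, 2.34 and 1.84 RPKM in controls, and fell by 1.02 on the log2 scale (limma adjusted p = 0.0039). *Nvl* had 1.07, 1.08 and 1.47 RPKM in KD and 2.33, 2.67 and 2.55 RPKM in controls, and fell by 0.68 (adjusted p = 0.0073). Among factors of the earliest small-subunit precursor, 18 of 40 tested genes were called higher (45.0%) and 0 lower, with a median of 0.297, led by *Dnttip2* (0.94), *Cirh1a* (0.84) and *Utp15* (0.75). Among 9 tested factors of late small-subunit maturation, 4 were called higher (44.4%), led by *Nob1* (0.60), the nuclease that makes the 3′ end of the small-subunit rRNA, *Tsr3* (0.60) and *Pno1* (0.57). The kinase *Riok3* was called lower (-0.62, 11.1% of this list).

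Of 11 tested snoRNP assembly factors, 1 was called higher (9.09%, no more than the 11.5% of all tested genes). It was *Nufip1* (3.86 ± 1.44 and 1.66 ± 0.190 RPKM, SD, n = 3), and the median of the list was 0.249. Of 8 tested polymerase I subunits and factors, 2 were called higher (25.0%), *Twistnb* (0.44) and *Taf1d* (0.41), and the median was 0.217. The RNA exosome and the trimming enzymes were divided. Of 16 tested genes, 4 were called higher (25.0%, against 11.5% of all tested genes) and 3 lower (18.8%, against 12.4%). Raised were *Exosc6* (0.55), *Exosc10* (0.53) and *Exosc4* (0.50), among others. *Isg20l2*, an exonuclease that trims the 3′ end of the 5.8S rRNA, had 1.64, 1.35 and 2.67 RPKM in KD and 5.15, 6.19 and 6.05 RPKM in controls. It fell by 1.26 on the log2 scale (limma adjusted p = 0.0049). *Mphosph6*, an exosome cofactor in maturation of the 5.8S rRNA (-0.69), and *Exosc5* (-0.37) were also called lower. Of 12 rRNA precursor and processing RNAs listed, *Rn18s* was analysed here, at 6299 ± 1797 RPKM in KD and 4848 ± 1616 RPKM in controls (SD, n = 3). These overlapped, and the labels describe a total RNA kit, so that rRNA levels depend on its depletion. The snoRNAs hosted in introns of members were not analysed here.

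**Figure D4:**
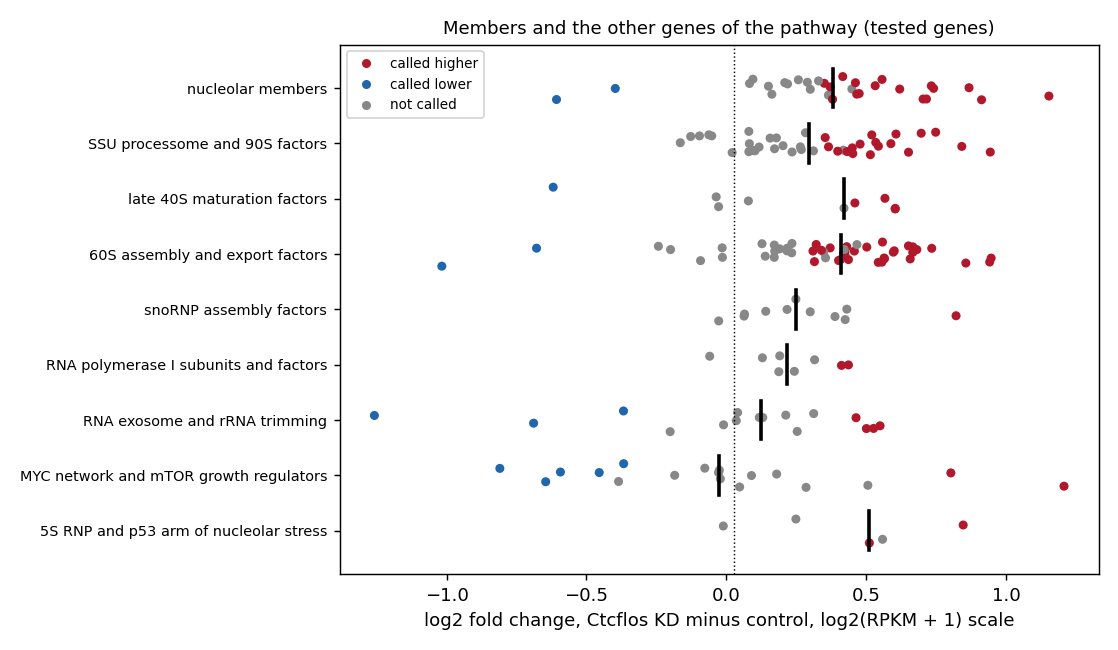
The strip plot shows the log2 fold change (Ctcflos KD minus control, log2(RPKM + 1) scale) of every tested gene of the member list and of 8 pathway lists, with thick lines at the list medians and a dotted line at the median of all tested genes (0.0278). Medians of the members, of both subunits' assembly factors and of late small-subunit factors lie between 0.297 and 0.42, and that of the MYC and mTOR list lies at -0.0264.

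Regulators of the pathway were also on the lists. MYC and MYCL are transcription factors of one family, of which MYC is known to activate ribosome biogenesis genes. *Myc* had 7.88, 5.90 and 3.39 RPKM in KD and 2.58, 2.57 and 2.97 RPKM in controls. It was above the controls in every KD library, but KD 1 and KD 3 lay far apart (log2 fold change 0.80 ± 0.228, limma adjusted p = 0.038, and up to 0.122 in the alternative fits). *Mycl* had 2.44, 2.67 and 1.16 RPKM in KD and 0.298, 0.335 and 0.277 RPKM in controls (1.21 ± 0.189, adjusted p = 0.0075). KD 3 was the lowest KD library for both. Of the 18 tested genes of the MYC network and of mTOR signalling, these were the 2 called higher (11.1%, against 11.5% of all tested genes), and 5 were called lower (27.8%, against 12.4%). *Deptor*, an inhibitor of mTOR (-0.81), *Mlx*, a partner of the MAD proteins (-0.65), and *Mxd4*, a MAD protein that opposes MYC at E-boxes (-0.59), were the most lowered, and the other two, named here after their values were seen, were *Mtor* itself, at 1.11 ± 0.158 RPKM in KD and 1.89 ± 0.287 RPKM in controls (SD, n = 3; -0.45), and *Tsc1*, which restrains mTOR (-0.37). Of the 5 tested genes of the 5S particle and the p53 arm of nucleolar stress, *Mdm2*, the ubiquitin ligase of p53 (16.5 ± 2.79 and 8.62 ± 0.287 RPKM, SD, n = 3, log2 fold change 0.85), and *Trp53*, which encodes p53 (3.70 ± 0.285 and 2.30 ± 0.274 RPKM, 0.51), were called higher. The other three, named because so few remained, were *Cdkn1a* (18.2 ± 6.40 and 11.6 ± 1.93 RPKM), *Rpl5* (111 ± 24.2 and 92.2 ± 5.71 RPKM) and *Rpl11* (58.0 ± 12.3 and 57.8 ± 5.99 RPKM), and each of them overlapped between groups.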

How the data were processed

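Total RNA of 3 *Ctcflos* KD and 3 control libraries was sequenced in paired-end reads, and groups were taken from the sample labels. The authors deposited 1 table of RPKM values per transcript accession. Its header names no unit, and how it was made is not given in the sources used here. Low values were whole multiples of the value of 1 read on Gencode vM21 lengths (at least 96.4% within 0.1 of a whole number), from which the depth was recovered. Of 168326 lines, 305 exact repeats were removed. All accessions of a symbol were averaged to 1 value per gene.

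The groups were compared with limma 3.58.1 (R 4.3.3, intensity trend) on log2(RPKM + 1). Genes averaging 1 RPKM or more were kept, and p-values of these 11701 genes were adjusted by the Benjamini-Hochberg method. Members under this mean were taken from a fit without the filter (38335 genes). "Called" means an adjusted p under 0.05. With 3 libraries per group an exact permutation test cannot go below p = 0.1. All members may be named, and of each list at most the 3 most raised and 3 most lowered called genes. Members and lists were chosen with earlier results of these data known, so that counts over them are descriptions. Gene overlaps and 50-base words come from Gencode vM21, and promoter windows from RefSeq. On simulated data with 11497 genes, the test found 180 of 180 tested genes that had been shifted by 1 log2 unit and made 10 false calls. The simulated noise was independent, with the same SD of 0.15 in every gene and library, and most members changed by less than 1 log2 unit. The simulation therefore checks that the code runs as meant, and does not show how often the test finds or misses changes in these libraries. Alternatives were a pseudocount of 0.1, no filter, scaling by the median of ratios, RefSeq accessions or the highest accession alone, the replicate number as a block, no trend, an adjusted p of 0.01, and leaving out each library in turn.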

Additional observations from a re-analysis of the deposited data

How the results depend on the processing

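Of 17 members called higher and 2 called lower, 7 and 0 were called without the filter, 11 and 1 with the replicate number as a block, and 5 and 0 at an adjusted p under 0.01. Leaving out a library gave 2 to 23 higher and 0 to 2 lower. *Nop56* and *Nop16* were called in all 13 alternative fits. *Wdr12*, which was never called, changed sign with its highest accession alone (-0.04166) and without control replicate 1 (-0.01684, up to 0.1169 without control replicate 2). Of all genes, 1349 were called higher and 1454 lower. This changed to 750 higher without the filter, to 746 and 925 under the block and to 172 and 351 at the stricter threshold, with 130 to 2727 higher and 239 to 2083 lower when a library was left out. Of the pathway genes, 63 higher and 11 lower became 20 and 7 without the filter, 36 higher under the block, and 5 and 4 at the stricter threshold, with 2 to 85 higher and 4 to 12 lower when a library was left out. *Ctcflos* kept its direction (-0.72 to -0.63 without a library, -0.66 with an adjusted p of 0.113 under the block, -0.94 with the highest accession alone, and -2.01 with a pseudocount of 0.1, which weighs less on a gene under 1 RPKM). The replicate numbers share no stated culture, and deviations of same-numbered libraries correlated at 0.287, -0.288 and -0.418. Not every library correlated best with its own number: KD 2 did so with control 3 (0.504) and KD 3 with control 2 (0.419). Deviations from a mean of 3 libraries depend on each other, so that these correlations cannot decide whether the numbers pair the libraries. A pseudocount of 0.1 and limma without trend left 17 and 2 members called, scaling 15 and 2, RefSeq accessions alone 19 and 2, and the highest accession alone 18 and 2. Fits that leave out a library hold fewer samples, and the other causes of these changes were not tested. *Fbl* and *Ctcflos* lie under 1 RPKM and rest on few reads.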
